A study of Homo sapiens with 4 samples.

Results

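The imprinted locus at 14q32 was examined in SH-SY5Y, a long-established line from a human neuroblastoma whose cells become neuron-like on differentiation. Members were the transcript clusters, which are the array's units of 1 summarised signal each, that the platform table gives a single symbol beginning with SNORD113 or SNORD114 or equal to DLK1, MEG3, RTL1, MEG8, MEG9, DIO3 or SNORD112. This rule took 45 of 67528 transcript clusters, made up of 9 SNORD113 copies, 31 SNORD114 copies, the 3 protein-coding genes DLK1, RTL1 and DIO3, and the 2 long non-coding RNA genes MEG3 and MEG9. MEG8 and SNORD112 share 1 cluster with both symbols, so it was not counted as a member.

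The comparison sets 2 arrays from cells carrying an shRNA against LSD1+8a beside 2 arrays from cells carrying a control shRNA. LSD1+8a is the neuronal splice form of LSD1, a histone demethylase encoded by KDM1A, and includes exon 8a. All cells carried one of these shRNAs, introduced by infection, and all were differentiated in the same way, with retinoic acid at 10 μM for 4 days followed by BDNF, a neurotrophin, at 50 ng/mL in medium without serum for 3 days. The series asks which genes depend on LSD1+8a in these differentiated cells. Each group rests on 1 named shRNA in 1 cell line, and nothing in the labels says that replicate arrays came from separate cultures, so the spread behind each p-value is that between arrays and may be technical.

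At 14q32 the copy of the chromosome inherited from the father expresses the protein-coding genes, and the copy inherited from the mother expresses the non-coding RNAs. DLK1 encodes a membrane protein related to Notch ligands that marks neuroendocrine and adrenergic cells, RTL1 encodes a protein derived from a retrotransposon, and DIO3 encodes the deiodinase that inactivates thyroid hormone. MEG3, MEG8 and MEG9 are long non-coding RNAs of the maternal copy. The SNORD113 and SNORD114 copies are C/D box small nucleolar RNAs, a class that guides ribose methylation of other RNAs, and lie in tandem in introns of the MEG8 transcription unit. No ribosomal RNA target is established for them. The copies thus share a precursor and much of their sequence and are not independent measurements.

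Values are log2 signals made with RMA, so a difference of 1 is a doubling. RMA gives no detection call. As a rough guide to background, the median of the array's background features with GC counts of 13 to 18 was 4.50 and 4.43 on control arrays 1 and 2 and 4.71 and 4.72 on LSD1+8a arrays 1 and 2. These features differed by 0.09 to 0.27 between the groups, with a median of 0.24 higher with the LSD1+8a shRNA, and the median over all transcript clusters was 0.09 higher. Array medians over all clusters were 5.06 and 4.997 for control and 5.13 and 5.18 for LSD1+8a shRNA. Probes differ in brightness, so signals of different clusters are not ranked as abundances here.

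The KDM1A cluster, which sums all LSD1 splice forms and cannot isolate exon 8a, read 9.10 and 9.25 in control cells and 8.76 and 8.78 in LSD1+8a shRNA cells. The groups did not overlap. Its difference of -0.41 ± 0.10 (limma's standard error, SE) had a limma adjusted p of 0.0735 over all transcript clusters, above the threshold of 0.05. Of 12 adrenergic neuroblastoma markers, 10 had a cluster of their own, and all 10 lay above the background medians on every array, among them DBH and PHOX2A. Their differences went both ways, with 7 of 10 positive and a median of 0.24. CHGB, a secretory granule protein gene, was the 1 called, and rose by 0.67 (limma adjusted p = 0.0459). The largest difference the other way was that of ISL1, a transcription factor gene, at -0.46 (limma adjusted p = 0.0679). Of 11 measured markers of the mesenchymal state of such lines, 9 did so, and 6 of the 11 differences were positive, with a median of 0.07. VIM, an intermediate filament gene, was the 1 called, and fell by 0.72 (limma adjusted p = 0.0430). Here the largest difference the other way was that of MEOX1, at 0.36 (limma adjusted p = 0.0962). The CHGB and VIM calls rest on 2 arrays a group, in a fit where 0.222% of all clusters were called higher and 1.08% lower. After quantile normalization and after cyclic loess, 0 of the 11 mesenchymal markers were called, so the VIM call depended on the scaling. In both of these settings 2 of the 10 adrenergic markers were called higher, beside 104 and 98 of all 67528 clusters. With array medians centred, 2 of the 11 mesenchymal markers were called lower, and 1 adrenergic marker was called higher and 1 lower. In that setting 169 of all clusters were called higher and 3074 lower. When 1 array was left out, the adrenergic median ran from 0.07 to 0.33 and the mesenchymal median from -0.02 to 0.16. Whether the state of the cells has a part in the results at 14q32 was not tested. In bulk RNA, fewer cells of a type and less RNA per cell cannot be told apart.

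No member of the locus passed the test. With limma and Benjamini-Hochberg adjustment over all 67528 transcript clusters, 0 of 45 members had an adjusted p under 0.05, where 1.3% of all transcript clusters did. Those 881 clusters divide into 150 that rose and 731 that fell in LSD1+8a shRNA cells. The smallest adjusted p among the members was 0.0671, for SNORD114-7. At an unadjusted p under 0.05 there were 8 members, 6 higher and 2 lower, against 32.5% of all clusters (20.7% higher and 11.8% lower). For 20 of 45 members all values of one group lay above all of the other, 12 higher and 8 lower, where 65.5% of all clusters did not overlap (44.1% higher and 21.4% lower). Missing the threshold does not show that the levels are equal: with 2 arrays a group, the SE of a member's difference ran from 0.09 to 0.29.

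The call changed for 4 members when the test was run on 22465 genes with 1 cluster each, leaving out the unnamed clusters. There, 23.3% of genes passed, and the members that passed were SNORD114-7 (adjusted p = 0.0260), SNORD114-22 (0.0368), SNORD114-27 (0.0458) and MEG3 (0.0462). Their differences are the same in both fits, and only the variance moderation and the number of tests change. These 4 of 45 members are a smaller share than the background.

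RTL1, the retrotransposon-derived gene, read 11.22 and 11.35 in control cells and 11.98 and 11.42 in LSD1+8a shRNA cells. Both LSD1+8a values lay above both control values, and the second by less than the spread within its group. The difference was 0.42 ± 0.18 (SE), or 1.33-fold higher, and did not pass (limma adjusted p = 0.160). The size depends on 1 array. It was 0.69 when LSD1+8a replicate 2 was left out (limma adjusted p = 0.0481, past the threshold) and 0.14 when replicate 1 was (0.560).

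DLK1 read 9.70 and 10.19 in control cells and 10.16 and 9.43 in LSD1+8a shRNA cells. The groups overlapped, with 1 high and 1 low array in each. The difference of -0.15 ± 0.26 (SE) did not pass (limma adjusted p = 0.707). It has no settled direction, being 0.0025 after cyclic loess, 0.0074 after quantile normalization, 0.22 when LSD1+8a replicate 2 was left out and -0.51 when LSD1+8a replicate 1 was. DIO3, the deiodinase gene at the far end of the domain, read 4.47 and 4.05 in control and 4.40 and 4.51 in LSD1+8a shRNA cells. These values lie below the background medians, the groups overlapped, and the difference of 0.19 ± 0.15 (SE) did not pass (limma adjusted p = 0.385).

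**Figure D1:**
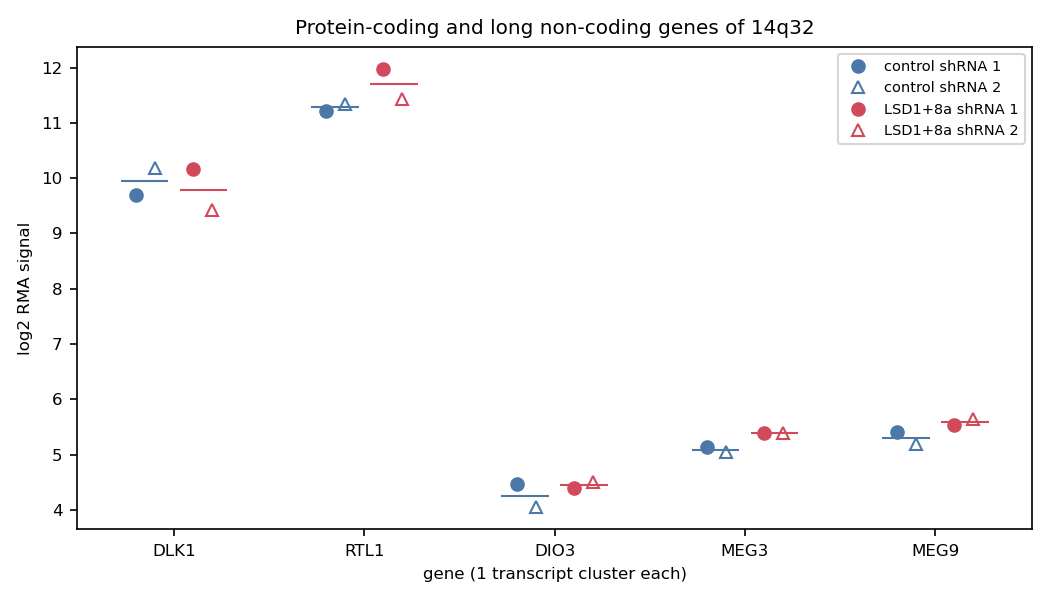
Log2 RMA signal of DLK1, RTL1, DIO3, MEG3 and MEG9 on each of the 4 arrays (points, with replicate 1 filled and replicate 2 open) and the mean of each group of 2 (lines). DLK1 and RTL1 differ between the 2 LSD1+8a shRNA arrays by 0.74 and 0.55, while the MEG3 and MEG9 groups do not overlap.

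The maternally expressed MEG3 and MEG9 were close to each other in difference. MEG3, a long non-coding RNA known as a growth suppressor, read 5.14 and 5.04 in control cells and 5.39 and 5.39 in LSD1+8a shRNA cells. MEG9, the long non-coding RNA at the end of the microRNA cluster, read 5.41 and 5.19 and then 5.54 and 5.65. Neither gene's groups overlapped. The differences were 0.30 ± 0.10 for MEG3 and 0.30 ± 0.11 for MEG9 (SE), with limma adjusted p-values of 0.101 and 0.128.

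Both differences are about as large as that of the background features. After cyclic loess, which removes the dependence of differences on level, they were 0.13 (adjusted p = 0.356) and 0.14 (adjusted p = 0.382). All transcript clusters with mean signals between 5 and 6 had a median difference of 0.18. The part of array background in the values of MEG3 and MEG9 was not tested.

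The 5 protein-coding and long non-coding members together had a median difference of 0.30, and 4 of the 5 differences were positive, beside 43354 of 67528 for all clusters. DLK1, RTL1, MEG3 and MEG9 lay above the background medians on every array, and DIO3 below them.

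RTL1 is overlapped on the opposite strand by microRNA genes of the maternal copy, whose mature products are fully complementary to its message. By RefSeq positions these are MIR431, MIR433, MIR127, MIR432 and MIR136, and they were picked out for this position after the values were seen. Their mature sequences (RefSeq, GRCh38.p14, plus strand of chromosome 14) are shown because each is by position antisense to RTL1. They run 5′ to 3′ with the seed, bases 2 to 8, in capitals.
hsa-miR-431-5p: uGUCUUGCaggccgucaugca
hsa-miR-431-3p: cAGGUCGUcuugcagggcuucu
hsa-miR-433-5p: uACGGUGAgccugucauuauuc
hsa-miR-433-3p: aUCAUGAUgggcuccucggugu
hsa-miR-127-5p: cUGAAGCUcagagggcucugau
hsa-miR-127-3p: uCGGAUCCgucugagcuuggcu
hsa-miR-432-5p: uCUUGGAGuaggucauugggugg
hsa-miR-432-3p: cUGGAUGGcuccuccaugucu
hsa-miR-136-5p: aCUCCAUUuguuuugaugaugga
hsa-miR-136-3p: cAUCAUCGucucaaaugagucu
The first of these lies at chr14:100881026-100881046 and the last at chr14:100884750-100884771. The 10 sequences have 10 different seeds, so these genes form no seed family.

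The 5 antisense clusters differed between the LSD1+8a arrays in the same way as RTL1 and DLK1. MIR431 read 8.76 and 8.98 in control and 9.71 and 8.92 in LSD1+8a shRNA cells, and MIR136 read 8.88 and 9.25 and then 9.62 and 8.70. In each of the 5 the first LSD1+8a array was the highest of the 4 arrays, and the groups overlapped. The gap between the LSD1+8a arrays was 0.73 for MIR127, 0.76 for MIR433, 0.79 for MIR431, 0.92 for MIR136 and 0.97 for MIR432.

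For DLK1 that gap was 0.74, a size that 0.727% of all transcript clusters reached, and for RTL1 it was 0.55, reached by 1.86%. The control arrays differed the other way, array 1 being lower than array 2 by 0.49 for DLK1 and by 0.13 for RTL1, and by 0.17 to 0.37 for the 5 microRNA clusters. For these genes the spread within a group was thus as large as the difference between groups, or larger, except that the RTL1 groups did not overlap. The differences of the 5 clusters ran from 0.03 to 0.45 (limma adjusted p from 0.236 to 0.953). Their median of 0.32 became 0.68 when LSD1+8a replicate 2 was left out, and -0.05 when LSD1+8a replicate 1 was. The sources used here do not say whether the probes read only 1 strand, so signal of RTL1 and of its antisense transcript cannot be told apart.

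**Figure D2:**
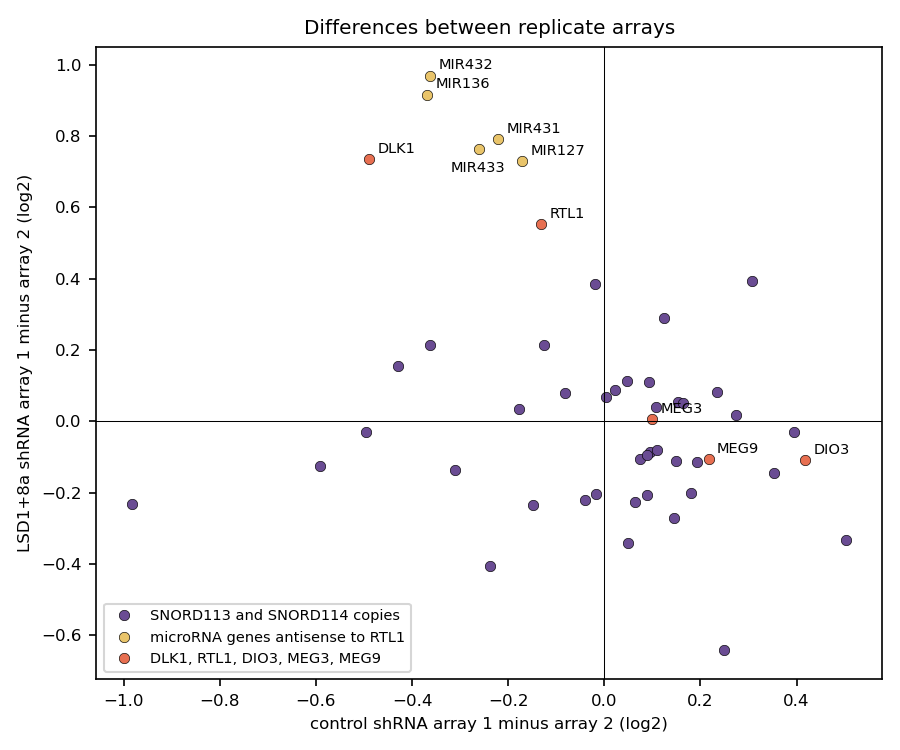
Difference between the replicate arrays of each group, control shRNA on the x axis and LSD1+8a shRNA on the y axis (log2), for the 45 members and the 5 microRNA genes antisense to RTL1. DLK1, RTL1 and the 5 antisense clusters lie together at the upper left, with LSD1+8a gaps of 0.55 to 0.97, while MEG3, MEG9 and DIO3 lie near 0 on the y axis.

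The 40 SNORD113 and SNORD114 clusters mostly read at background. Their means over the 4 arrays ran from 1.82 to 5.77, with a median of 2.99. Of the 9 SNORD113 copies, 0 lay above the background medians on every array and 8 lay below on every array. Of the 31 SNORD114 copies, 2 lay above on every array, SNORD114-1 and SNORD114-31, and 26 below. The background features span other base compositions than these short RNAs may have, so this is a guide and not a detection call. No pair of copies had the same values on all arrays (0 of 40).

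**Figure D3:**
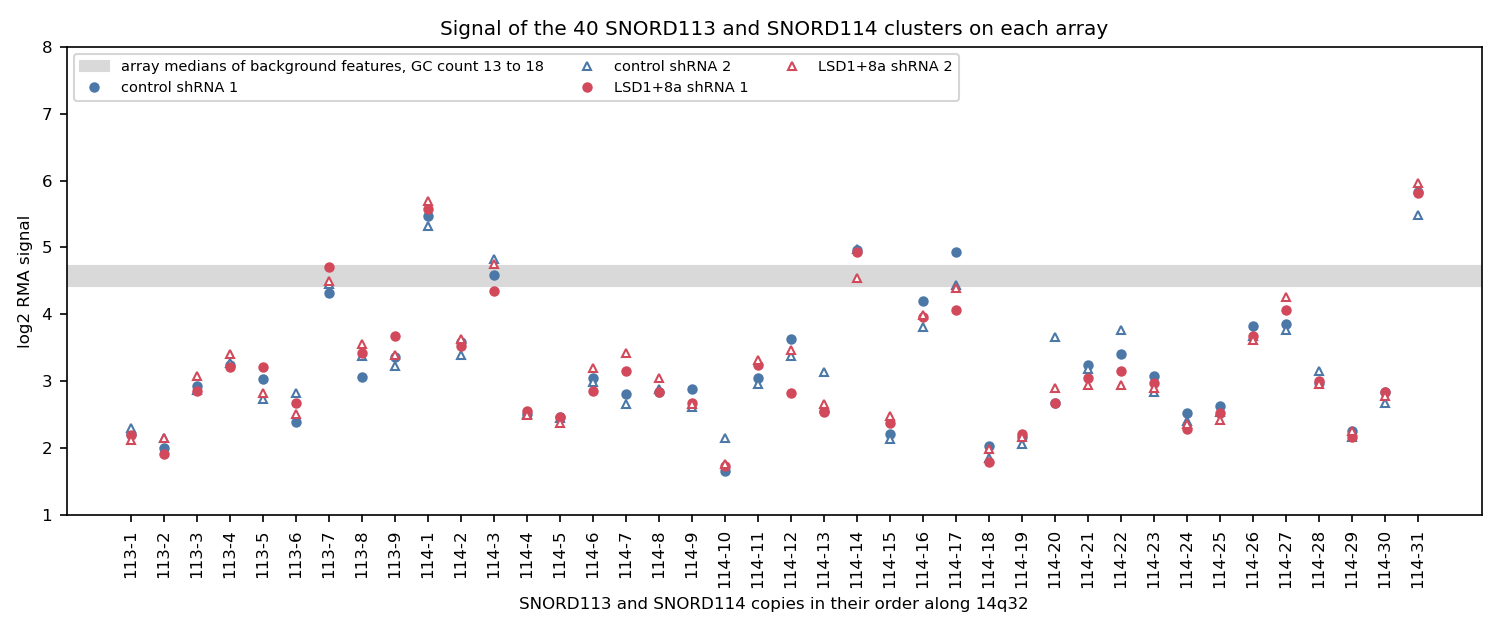
Log2 RMA signal of the 40 SNORD113 and SNORD114 clusters on each array, in their order along 14q32, with the 4 arrays' background medians (4.43 to 4.72) as a grey band. Only SNORD114-1 and SNORD114-31 lie above the band on all 4 arrays.

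The copies above background were the first and the last of the SNORD114 array. SNORD114-1 read 5.48 and 5.33 in control cells and 5.58 and 5.69 in LSD1+8a shRNA cells, and SNORD114-31 read 5.83 and 5.48 and then 5.82 and 5.96. The SNORD114-1 groups did not overlap and the SNORD114-31 groups did. The differences were 0.24 ± 0.10 and 0.23 ± 0.14 (SE), with limma adjusted p-values of 0.166 and 0.270. They lie above the median of 0.18 of all clusters with means between 5 and 6, and were 0.09 and 0.10 after cyclic loess.

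The next copies by signal lay around the background band. SNORD114-14 read 4.96 and 4.98 in control cells and 4.93 and 4.55 in LSD1+8a shRNA cells, so the groups did not overlap although the first LSD1+8a array was close to both controls. SNORD114-3 read 4.59 and 4.83 and then 4.35 and 4.76, with overlapping groups. SNORD113-7, the SNORD113 copy with the highest mean, read 4.32 and 4.45 and then 4.71 and 4.49. Their differences were -0.23 ± 0.14, -0.15 ± 0.16 and 0.22 ± 0.11 (SE), and none passed (limma adjusted p = 0.277, 0.509 and 0.227).

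The copies with the largest positive differences read below the background medians on every array. SNORD114-7 read 2.81 and 2.66 in control cells and 3.16 and 3.43 in LSD1+8a shRNA cells. Its groups did not overlap, and the difference was 0.56 ± 0.12 (SE). SNORD114-27 read 3.85 and 3.76 and then 4.06 and 4.26, and SNORD114-11 read 3.05 and 2.95 and then 3.24 and 3.32. Their groups did not overlap either, with differences of 0.35 ± 0.11 and 0.28 ± 0.10 (SE). Limma adjusted p-values were 0.0671, 0.0977 and 0.114, and after cyclic loess the differences were 0.48, 0.21 and 0.19.

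In the other direction, SNORD114-22 read 3.41 and 3.77 in control cells and 3.15 and 2.94 in LSD1+8a shRNA cells, without overlap. Its difference was -0.54 ± 0.15 (SE, limma adjusted p = 0.0809). Both SNORD114-22 and SNORD114-20 read below the background medians on every array. SNORD114-17 read 4.94 and 4.43 and then 4.07 and 4.40. Its groups did not overlap, though control array 2 and LSD1+8a array 2 nearly met, and the difference was -0.45 ± 0.19 (SE; limma adjusted p = 0.150). SNORD114-20 read 2.67 and 3.65 and then 2.66 and 2.90, so that control array 2 alone carried its difference of -0.38 ± 0.29 (SE; limma adjusted p = 0.381). Without control replicate 2 the SNORD114-20 difference was 0.11. The gap between its control arrays, -0.98 as array 1 minus array 2, was reached in size by 0.176% of all clusters.

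As a group the copies stood close to 0. The median difference was 0.07 over the 9 SNORD113 copies, of which 6 were positive, and -0.04 over the 31 SNORD114 copies, of which 12 were positive. The sign of the SNORD113 median turned with the scaling, to -0.06 with array medians centred and -0.0018 after cyclic loess. The SNORD114 median was -0.16 and -0.10 there, and 0.03 when control replicate 1 was left out. Array medians over the 40 copies were 3.01 and 2.97 in control and 2.91 and 2.95 in LSD1+8a shRNA cells. The standard deviation over copies was 0.22 for the difference between groups, against 0.29 for the gap between the control arrays and 0.21 for that between the LSD1+8a arrays. The first is a difference of means of 2 arrays and the others are gaps between single arrays, so their sizes are not directly comparable.

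Along the locus, the negative differences lay mostly in 1 stretch, which was marked off after the values were seen and was given no test. From SNORD114-12 to SNORD114-26, 13 of 15 differences were negative, with a median of -0.14. All copies of the stretch except SNORD114-14 and SNORD114-17 read below the background medians on every array. Upstream of it, from SNORD113-1 to SNORD114-11, 7 of 20 were negative, with a median of 0.06, and downstream 2 of 5 were negative. Over all transcript clusters 24174 of 67528 were negative.

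In the stretch the count was 13 of 15 after cyclic loess and after quantile normalization as well, 14 with array medians centred, and between 10 and 12 when 1 array was left out. Upstream, 12 of 20 were negative after cyclic loess. The single pairs of arrays varied more, from 9 of 15 negative for LSD1+8a array 2 against control array 2 to 13 of 15 for LSD1+8a array 1 against control array 1. The groups did not overlap for 7 lower and 2 higher copies of the 15, beside 21.4% lower and 44.1% higher over all clusters. SNORD114-15 and SNORD114-19 were the 2 with positive differences. Because the stretch was marked off by where negative differences lay, its shares of negative and lower copies cannot be weighed against those of all clusters. The counts under other scalings, with an array left out and by pairs of arrays reuse the same arrays. They are no independent check of the stretch.

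**Figure D4:**
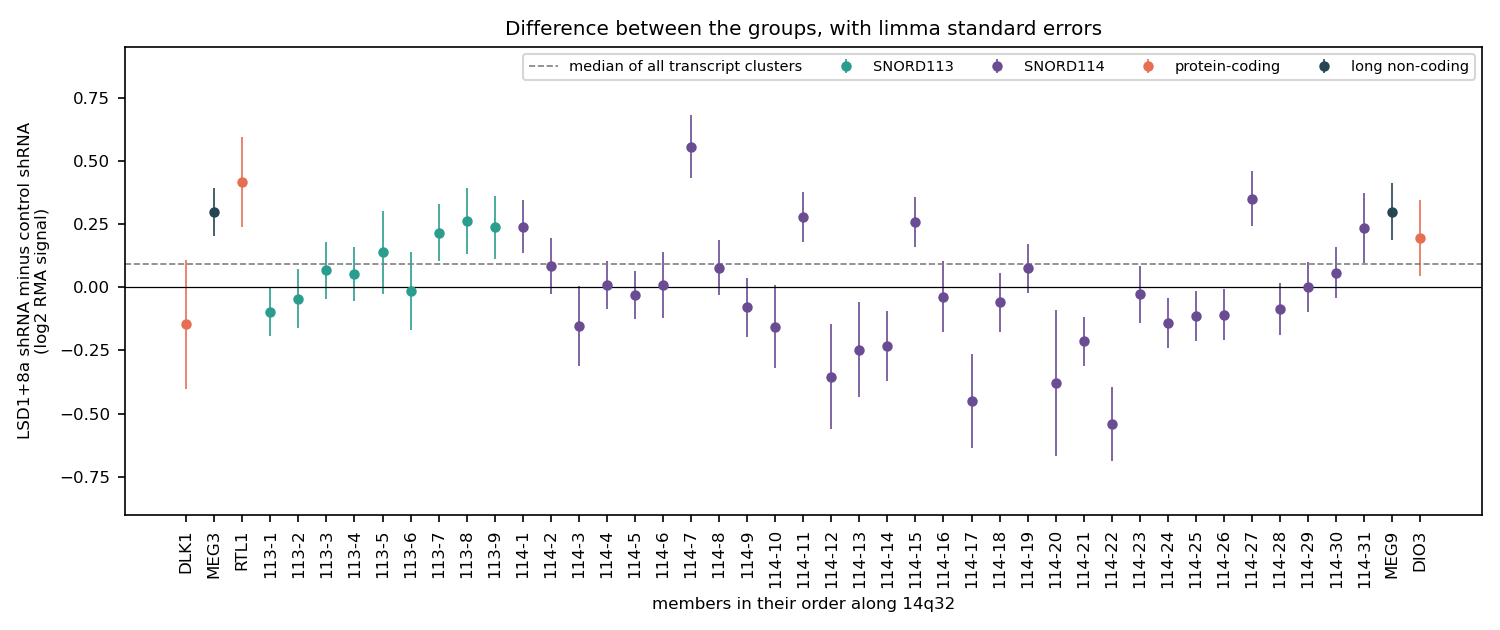
Difference in log2 RMA signal, LSD1+8a shRNA minus control shRNA, for the 45 members in their order along 14q32, with limma standard errors and the median of all transcript clusters (0.09) as a dashed line. SNORD114-12 to SNORD114-26 hold 13 negative differences of 15, mostly from copies that read below the background medians on every array. That stretch was marked off after the values were seen. No member passed the test.

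The other imprinted snoRNA locus, at 15q11, holds the SNORD116 and SNORD115 copies. Of 19 SNORD116 clusters, 13 were called lower and 0 higher, where 1.08% of all transcript clusters were called lower. Of the 19 differences 18 were negative, with a median of -1.06. Of 31 SNORD115 clusters, 0 were called in either direction by limma (0 at an unadjusted p under 0.05), with a median of -0.04. Of 98 other SNORD clusters, 17 were called lower and 0 higher, with a median of -0.69. The SNORD113 and SNORD114 copies, with 0 of 40 called and a median of -0.02, thus sat beside the SNORD115 copies in count and median. The difference between these sets was not tested.

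Signal level differs between them. The mean signals of the SNORD115 copies ran from 1.67 to 3.10, those of SNORD116 from 3.04 to 10.08 and those of the other SNORD clusters from 2.57 to 12.50. Among clusters with means between 3 and 4, the 14 SNORD113 and SNORD114 copies had a median difference of 0.03, the 11 other SNORD clusters one of -0.68 and all clusters one of 0.12. Between 4 and 5, the 4 copies had a median of -0.19, the 9 other SNORD clusters one of -0.55 and all clusters one of 0.17. Between 5 and 6, the 2 copies had one of 0.24 and the 13 other SNORD clusters one of -0.62. Between 2 and 3, the 18 copies had a median of -0.02 and all clusters one of 0.05. Only 2 other SNORD clusters lay there, with a median of -0.07. Below 2, the 2 copies had a median of -0.11 and all clusters one of -0.04, and there were 0 other SNORD clusters. Apart from those of SNORD115, the weakest copies thus had almost no SNORD clusters to be set beside. The median of the other SNORD clusters was -0.28 when LSD1+8a replicate 1 was left out and -0.92 when LSD1+8a replicate 2 was. In the same 2 settings the SNORD115 median was 0.15 and -0.15, and the SNORD116 median -1.08 and -0.90.

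The microRNA genes of 14q32 lie on both sides of the snoRNA array, and are, like it, expressed from the maternal copy. Of 54 listed genes of the locus, 53 had a cluster of their own. By limma 0 were called in either direction (6 at an unadjusted p under 0.05, all higher, where 20.7% of all clusters were higher at that p). Their median difference was 0.15, with 42 of 53 positive, and 0.08 after cyclic loess, with 35 positive. Without the 5 genes antisense to RTL1, 37 of 48 were positive, with a median of 0.14. In the fit with 1 cluster per gene 5 were called higher and 0 lower, where 12.1% of genes were called higher. Their clusters measure the gene or its precursor and not the mature microRNA.

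MIR541 and MIR770 had the largest differences of the list. MIR541 read 5.73 and 5.68 in control cells and 6.23 and 6.25 in LSD1+8a shRNA cells, and its difference of 0.53 had a limma adjusted p of 0.0514. MIR770, which lies within MEG3, read 6.09 and 5.66 and then 6.50 and 6.31, a difference of 0.53 (limma adjusted p = 0.0911). Neither gene's groups overlapped. Their mature sequences, from the same RefSeq table and with the seed in capitals, show that MIR541 carries a seed found elsewhere in the locus.
hsa-miR-770-5p: uCCAGUACcacgugucagggcca
hsa-miR-541-5p: aAAGGAUUcugcugucggucccacu
hsa-miR-541-3p: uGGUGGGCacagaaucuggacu
The seed of hsa-miR-541-3p is shared with hsa-miR-654-5p, whose gene MIR654 lies in the same cluster. Of 83 different seeds among the 94 mature microRNAs of the 54 genes, 13 occur in more than 1 gene.

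Genes that flank the imprinted domain were not called in the fit over all clusters. Of 16 listed flanking genes, 15 had a cluster of their own. By limma 0 were called (6 at an unadjusted p under 0.05, which 32.5% of all clusters reached), with a median difference of 0.06. SLC25A47, a mitochondrial carrier, had a difference of 0.35 (limma adjusted p = 0.0964), and DEGS2, a sphingolipid enzyme, one of 0.31 (0.0925). With 1 cluster per gene, 2 were called higher and 1 lower, where 12.1% of genes were called higher and 11.2% lower.

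Proteins that assemble C/D box snoRNAs all had negative differences. Of 11 listed genes 10 had a cluster of their own, with a median difference of -0.27. By limma 0 were called (5 at an unadjusted p under 0.05, all lower, where 11.8% of all clusters were lower at that p). NUFIP1 and ZNHIT3, assembly factors of these particles, had differences of -0.59 (limma adjusted p = 0.0579) and -0.53 (0.0514). After cyclic loess ZNHIT3 was the 1 gene of the list called, and 9 of 10 differences were negative. With 1 cluster per gene, 5 of 10 were called lower, where 11.2% of genes were.

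Of 14 listed factors that maintain or remove imprints, 13 had a cluster of their own, and 1 was called. TET1, which oxidises methylated cytosine, read 7.98 and 8.16 in control cells and 7.22 and 7.31 in LSD1+8a shRNA cells and fell by 0.80 ± 0.11 (SE; limma adjusted p = 0.0379). It was not called without control replicate 1 or without control replicate 2, where no cluster was called in the whole table. The other 12 had a limma adjusted p from 0.0855 upwards. DNA methylation was not measured in these arrays.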

How the data were processed

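Expression was measured on 4 Affymetrix human transcriptome arrays, 2 per group, from 250 ng total RNA each. The authors deposited log2 signals, produced with RMA according to the submitters' processing notes. The sources used here give no version, annotation or genome build for it, and no scanner values were used, so the scale rests on that note. Of 70523 features, 67528 are transcript clusters, and the others were left out. The platform table gave 1 symbol to 23781 clusters, several to 1543 and none to 42204. Order along the locus and microRNA positions come from RefSeq (GRCh38.p14), which held all 45 member symbols. It was used for order and overlap.

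LSD1+8a shRNA minus control shRNA was tested with limma 3.58.1 in R 4.3.3 (lmFit, eBayes) over all transcript clusters, without a filter or replicate term, with Benjamini-Hochberg adjustment and a threshold of 0.05. There were 2 residual degrees of freedom plus 4.81 from the prior, so the number of arrays limits precision. The fit was also run on simulated arrays with variances drawn from its own prior, which checks the code and not the results given here. Lists took 1 cluster per gene, the one with the highest mean. Members given array by array were all non-snoRNA genes and the snoRNA copies with the 5 highest means or the 3 largest differences either way, and from lists up to 4 called genes, or 2 by size. The members and lists were chosen with earlier results of these data known. Figures used matplotlib 3.10.9.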

Additional observations from a re-analysis of the deposited data

How the results depend on the processing

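No member was called under quantile normalization, cyclic loess, centred array medians, a trended or robust prior variance, a stricter adjusted p of 0.01, or among the 6 members above the median level. The count was 4 of 45 with 1 cluster per gene, 3 at an adjusted p of 0.10, and between 0 and 1 when 1 array was left out, the 1 being RTL1 without LSD1+8a replicate 2. The count over all clusters moved far more. It was 881 as reported, 5245 with 1 cluster per gene, 3243 with array medians centred (5.21% of them higher instead of 17.0%), 3775 among clusters above the median level, 1575 with a trended prior, 1 at an adjusted p of 0.01 and 11671 at 0.10, and between 0 and 1369 when 1 array was left out. It was 0 without control replicate 1 and without control replicate 2, so a lost call there says little of any single member. Centring moved the median of all clusters from 0.09 to -0.03.

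The median of the SNORD113 and SNORD114 copies was -0.14 with array medians centred, -0.056 after cyclic loess, -0.047 after quantile normalization, 0.24 for the 2 copies above the median level, and from -0.047 to 0.039 when 1 array was left out. The median of the other 5 members was 0.18 with array medians centred and 0.13 after cyclic loess. Of 182 values of 16 members under these settings, 7 had the other sign and 5 passed the threshold where the reported value did not. DLK1 turned sign after cyclic loess (0.0025) and quantile normalization (0.0074). When 1 array was left out, signs turned for DLK1 (from -0.51 to 0.22, positive without LSD1+8a replicate 2 and, at 0.097, without control replicate 2), DIO3 (from -0.015 to 0.40, negative without control replicate 2), SNORD114-20 (from -0.87 to 0.11, positive without control replicate 2) and SNORD114-3 (from -0.36 to 0.048, positive without LSD1+8a replicate 1). The cause was not tested.

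The arrays of both groups are numbered 1 and 2, but nothing in the labels pairs them, and same-numbered arrays did not deviate together (correlation 0.0016 over 67528 clusters). With the replicate number as a block, 3112 clusters and 0 members were called. Signal near background limits what these arrays show for the snoRNA copies: 34 of 40 read below the background medians on every array.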

Other observations

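The cluster that carries both MEG8 and SNORD112 could not be given to either gene. It read 4.44 and 4.53 in control cells and 4.51 and 4.59 in LSD1+8a shRNA cells, with overlapping groups and a difference of 0.07 ± 0.10 (SE; limma adjusted p = 0.645).

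Of the 10 measured adrenergic markers, 2 had a gap between the LSD1+8a arrays at least as large as that of RTL1, and were picked out for it after their values were seen. Over the 10 the gap ran from -0.09 to 0.64, with a median of 0.07, and was negative in 3. DBH, the enzyme that makes noradrenaline, read 11.49 and 11.71 in control and 11.86 and 11.22 in LSD1+8a shRNA cells, and the transcription factor gene PHOX2A read 9.25 and 9.34 and then 9.84 and 9.29. In both, as in DLK1 and RTL1, LSD1+8a array 1 was above LSD1+8a array 2 and control array 1 below control array 2. Neither gene passed the test (limma adjusted p = 0.855 and 0.314). That combination of signs held for 5 of the 10 markers. With 4 arrays no relation between these genes was computed.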
